A study of Rattus norvegicus with 6 samples.

Results

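The cytochrome P450 genes of drug and steroid metabolism were examined in rat liver after 1 feeding period on a low-protein diet. Probe sets, the groups of array probes that report a transcript, were taken where the platform annotation gives exactly 1 gene symbol beginning with Cyp and a digit. Cyp51, Cyp4a1, Cyp4a2, Cyp4a3, Cyp4a8, Cyp7a1, Cyp7b1, Cyp8b1 and Cyp27a1, which belong to sterol, bile acid and fatty acid pathways, were left out. This gave 50 genes in 28 subfamilies, measured by 56 probe sets of 31042 tested in all. A further 7 probe sets carry several symbols with a P450 gene among them and were not taken.

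Liver RNA came from male Wistar rats, an outbred strain, that were 6 weeks old and weighed about 150 g on arrival. The labels give no genetic change in any group. All rats had 4 days on pellets and then 4 days of training to eat the control diet (15P) in a daily window. They then ate 15P again (control, 3 arrays) or the isoenergetic low-protein diet 5P (3 arrays) for 8 hours. Livers were taken after 16 hours without food, so both groups, controls included, were fasted. The labels do not say whether an array holds 1 animal or a pool, and p-values then measure only the spread between these 6 samples.

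Cytochrome P450 enzymes are heme proteins that use molecular oxygen and electrons from NADPH to oxidise their substrates. Families CYP1, CYP2 and CYP3 handle most drugs and other foreign compounds in hepatocytes, and several members also hydroxylate steroid hormones. Their transcription in liver is set by xenobiotic receptors (AHR, CAR and PXR), by hepatocyte factors such as HNF4A and C/EBPalpha, and, in rats, by the sex-specific rhythm of growth hormone. Family CYP4 oxidises fatty acids and eicosanoids, whereas CYP11, CYP17, CYP19 and CYP21 make steroid hormones, mainly outside the liver.

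The sequences upstream of 4 members show how related genes of this family differ in the letters before their start. Cyp2c11 and Cyp2c12 are the classic male and female forms of rat liver, and Cyp3a2 lies next to Cyp3a23-3a1 in the RefSeq gene order. They are RefSeq sequences of build GRCr8, each the 250 bases before the gene's start, written 5′ to 3′ along the gene. Capitals mark a TATA box (TATAAA) in the first pair and an HNF4A motif (CAAAGTCCA) in the second.

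Cyp2c11, chr1:246174966-246175215, plus strand: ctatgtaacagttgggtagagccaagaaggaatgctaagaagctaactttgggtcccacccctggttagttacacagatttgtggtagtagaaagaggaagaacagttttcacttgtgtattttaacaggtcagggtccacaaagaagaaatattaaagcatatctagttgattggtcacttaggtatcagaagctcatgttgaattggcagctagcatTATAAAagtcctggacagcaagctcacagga
Cyp2c12, chr1:248677035-248677284, minus strand: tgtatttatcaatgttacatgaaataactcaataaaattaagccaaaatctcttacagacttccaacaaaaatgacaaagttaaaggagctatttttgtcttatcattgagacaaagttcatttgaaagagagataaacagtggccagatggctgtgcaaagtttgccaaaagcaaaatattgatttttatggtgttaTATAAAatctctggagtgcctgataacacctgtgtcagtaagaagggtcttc
Cyp3a2, chr12:14343858-14344107, minus strand: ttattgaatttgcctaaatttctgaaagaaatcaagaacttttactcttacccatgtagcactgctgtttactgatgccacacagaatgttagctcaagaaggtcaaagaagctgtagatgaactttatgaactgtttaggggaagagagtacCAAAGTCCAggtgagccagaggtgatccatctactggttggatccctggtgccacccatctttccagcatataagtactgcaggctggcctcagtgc
Cyp3a23-3a1, chr12:14398804-14399053, minus strand: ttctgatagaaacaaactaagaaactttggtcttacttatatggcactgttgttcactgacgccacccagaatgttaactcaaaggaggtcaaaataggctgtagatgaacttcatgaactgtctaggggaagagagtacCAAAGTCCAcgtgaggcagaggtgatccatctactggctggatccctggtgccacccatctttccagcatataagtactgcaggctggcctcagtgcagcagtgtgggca

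Counted from the start of the gene, the TATA box lay at -31 to -26 in Cyp2c11 and at -52 to -47 in Cyp2c12. The HNF4A motif lay at -97 to -89 in Cyp3a2 and at -110 to -102 in Cyp3a23-3a1. In a pairwise alignment 208 of 230 aligned bases (90.4%) were identical between the Cyp3a windows, against 142 of 191 (74.3%) between the Cyp2c windows. These shares count aligned bases only and leave out the rest of each window. The share that unrelated windows reach in such an alignment was not tested. The Cyp2c value therefore does not show by itself that those windows are alike. Promoter windows were found for 41 of the 50 genes, and Cyp11b1, Cyp17a1, Cyp19a1, Cyp1a1, Cyp2a2, Cyp2c6v1, Cyp4f17, Cyp4f4 and Cyp4v3 had none. Searched on both strands, TATAAA was held by 13 of the 41 windows (31.7%) and by 12.9% of 33469 windows of all genes. Related genes are among the 13 (Cyp2c7, Cyp2c11, Cyp2c12, Cyp2c13 and Cyp2c22, and Cyp2a1 with Cyp2a3), so not all are independent matches. CAAAGTCCA was held by 2 of 41 (4.88%) and by 0.338% of all windows. Those 2 are the similar windows of Cyp3a2 and Cyp3a23-3a1, so they are not independent matches. The core letters that AHR recognises, GCGTG, were held by 10 of 41 (24.4%) and by 25.9% of all windows. A match describes letters only.

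RNA of P450 genes showed no difference between the diets that passed the threshold, which does not show that levels were equal. By limma, adjusted by the Benjamini-Hochberg method across the whole array, 0 of the 56 member probe sets passed at an adjusted p under 0.05. Of 31042 probe sets 41 passed (0.132%), 11 higher (0.0354%) and 30 lower (0.0966%) in low-protein livers. The smallest adjusted p among members was 0.121, for Cyp20a1. At an unadjusted p under 0.05 there were 8 members (14.3%) against 15.4% of all probe sets, with 4 higher (7.83% of all probe sets) and 4 lower (7.58%). The diets did not overlap in 12 members (21.4%) against 21.6% of all probe sets, with 7 higher (12.5% of all) and 5 lower (9.12%). In these counts the members' share was near that of the whole array. Above the median intensity, an unadjusted p under 0.05 was reached by 5 of 41 members and by 3282 of all 15521 such probe sets. There the diets did not overlap in 9 members and in 4173 of all such probe sets. With a mean log2 intensity of 12 or more, the diets did not overlap in 4 of 14 members, against 121 of all 290 such probe sets. No member passed in any of the 15 alternative fits either, where the lowest adjusted p was 0.086, for Cyp20a1 with arrays centred on their 75th percentile.

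A log2 fold change is given as the low-protein mean minus the control mean, so a positive value means more signal after the low-protein diet. The members ran from -0.69 to 0.81, with a median of 0.013 against 0.032 over all probe sets tested. Of the 56 members 30 were above 0 (58.1% of all probe sets were) and 26 below (41.9%), but the members' median turned to -0.014 with median centring, -0.0058 with quantile normalization, and -0.0025 and -0.021 with the filters on dim probe sets. The median absolute log2 fold change was 0.138 in the members and 0.115 over all probe sets. For 53 members (94.6%) the 95% interval of the log2 fold change lay within -1 to 1, that is, within a doubling or halving, as it did for 97.4% of all probe sets. It lay within -0.5 to 0.5 for 39 members (69.6%) and for 76.4% of all probe sets. The 3 members whose interval reached beyond -1 or 1 were Cyp2c12, Cyp3a9 and 1 of the probe sets of Cyp26b1. Intervals come from the moderated fit and are each for a single probe set. In bulk liver RNA, fewer cells of a type and less RNA per cell cannot be told apart.

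**Figure D1:**
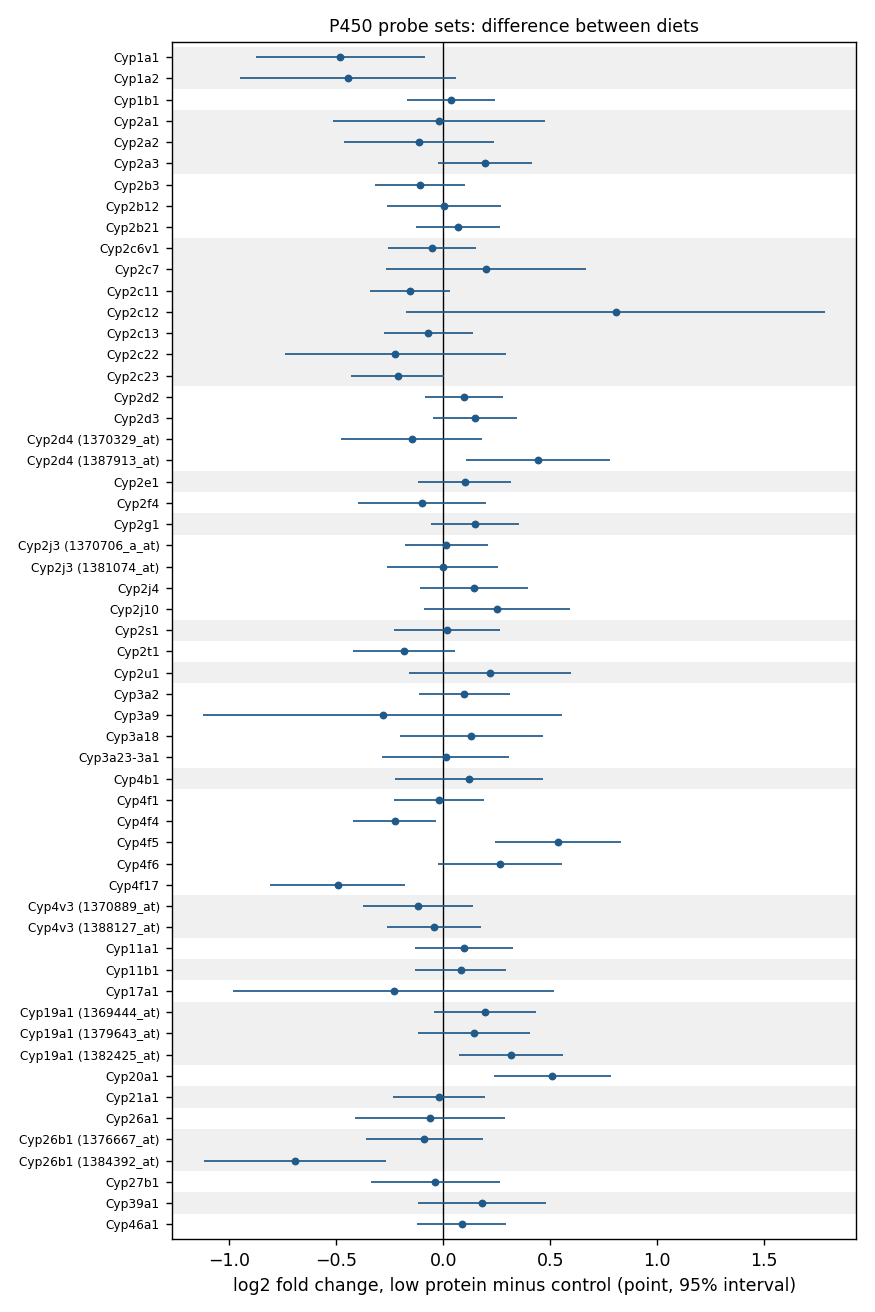
Log2 fold change (x axis, low protein minus control) of each of the 56 P450 probe sets (rows, shaded by subfamily), with the 95% interval from limma, n = 3 arrays per diet. Points run from -0.69 (Cyp26b1) to 0.81 (Cyp2c12), and most intervals include 0.

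**Figure D2:**
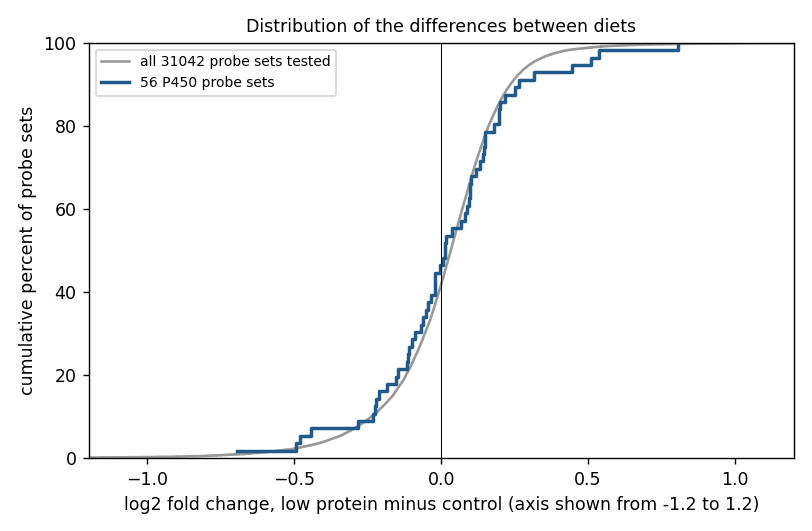
Cumulative percent of probe sets (y axis) by log2 fold change (x axis, low protein minus control), for the 56 P450 probe sets and for all 31042 tested. The curves lie close together, with medians of 0.013 and 0.032.

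No difference passed for the male-predominant forms, the main constitutive P450 enzymes of male rat liver. Their mean log2 intensities were 11.9 to 13.4, and whether such bright signals understate differences was not tested. Cyp2c11 (gene ID 29277), which hydroxylates testosterone and many drugs, read 13.45, 13.55 and 13.54 (log2 intensity) in control livers and 13.34, 13.37 and 13.37 in low-protein livers. Every low-protein array was below every control array, yet the gap was narrow, with a log2 fold change of -0.15 (95% interval -0.34 to 0.033) and an adjusted p of 0.409. It ran from -0.19 to -0.11 over the alternatives. Cyp3a2 (gene ID 266682), another male form and a testosterone hydroxylase, read 13.30, 13.29 and 13.47 against 13.45, 13.37 and 13.52. The diets overlapped, and the log2 fold change was 0.099 (-0.11 to 0.31). Of the 6 measured male-predominant genes (Cyp2c11, Cyp2c13, Cyp3a2, Cyp2a2, Cyp3a18 and Cyp2c22) 2 were above 0 and 4 below, and 0 passed. Cyp2c13 had a log2 fold change of -0.070 (-0.28 to 0.14) and Cyp2a2 of -0.11 (-0.46 to 0.24). Cyp2c22 read 13.05, 12.91 and 12.57 against 13.00, 12.76 and 12.09, a difference of -0.22 (-0.74 to 0.29). With low-protein replicate 3 left out it was 0.039.

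Female-predominant forms as a list varied more between arrays of the same diet, with a median within-diet SD of 0.497 against 0.153 for the male-predominant forms. The male form Cyp2c22 (0.375), however, varied more than the female forms Cyp2a1 (0.358) and Cyp2c7 (0.335). Mean log2 intensities also differed, from 6.39 to 13.0 on the female list and from 11.9 to 13.4 on the male list. The median SD of all probe sets was 0.133, against 0.0878 for those with a mean of 12 or more. The part of brightness in the contrast was not tested. Cyp2c12 (gene ID 25011), the steroid sulfate hydroxylase typical of female rat liver, read 10.17, 8.64 and 8.66 in control livers and 9.29, 10.31 and 10.29 in low-protein livers. Control replicate 1 stood with low-protein replicates 2 and 3 at the high end, and the diets overlapped. Its log2 fold change was 0.81 (-0.17 to 1.79, adjusted p = 0.408), the largest upward value of all members. It was 1.31 when control replicate 1 was left out (adjusted p = 0.208) and 0.55 when control replicate 2 was. Its SD was 0.880 in control and 0.582 in low-protein livers. Cyp3a9, also higher in females, read 6.63, 6.71 and 6.24 against 7.02, 5.32 and 6.40. Low-protein livers held both its highest and its lowest value, and its log2 fold change of -0.28 (-1.12 to 0.56) turned to 0.18 with low-protein replicate 2 left out. Cyp2c7, which hydroxylates retinoic acid, read 13.19, 13.20 and 12.39 against 13.04, 13.22 and 13.12. Control replicate 3 stood below the other 5 arrays, and the difference of 0.20 (-0.27 to 0.67) was -0.069 when it was left out. Cyp2a1, a testosterone hydroxylase, had -0.020 (-0.52 to 0.48), from -0.28 with control replicate 2 left out to 0.17 with control replicate 3 left out. Of these 4 genes 0 passed.

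The other CYP2C members did not pass. Cyp2c23 (gene ID 83790), an epoxygenase of arachidonic acid, read 12.95, 12.91 and 13.00 against 12.82, 12.80 and 12.60, and the diets did not overlap. Its log2 fold change was -0.21 (-0.43 to 0.0052, adjusted p = 0.334). Cyp2c6v1, which oxidises drugs in both sexes, had -0.053 (-0.26 to 0.15). Over the 7 CYP2C probe sets the median was -0.070, with 2 above 0 and 5 below. Cyp2e1 (gene ID 25086), the ethanol- and acetone-oxidising enzyme known to respond to fasting, read 13.22, 13.19 and 13.37 against 13.32, 13.29 and 13.46. The diets overlapped, with a log2 fold change of 0.10 (-0.12 to 0.32).

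CYP2D enzymes oxidise many basic drugs. Cyp2d2 (gene ID 25053) read 13.12, 13.16 and 13.12 in control livers and 13.23, 13.21 and 13.26 in low-protein livers. The diets did not overlap, but the step was small, at 0.096 (-0.086 to 0.28, adjusted p = 0.605). Cyp2d3 read 12.41, 12.47 and 12.55 against 12.64, 12.67 and 12.57 and likewise did not overlap, at 0.15 (-0.049 to 0.35). The probe sets of Cyp2d4 disagreed. The one that stands for the gene, 1370329_at, had -0.15 (-0.48 to 0.18). The other, 1387913_at, read 5.78, 5.84 and 6.06 against 6.64, 6.26 and 6.11 without overlap and had 0.44 (0.11 to 0.78, adjusted p = 0.214). Neither passed, so no direction is given for Cyp2d4. The subfamily median over 4 probe sets was 0.12.

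**Figure D3:**
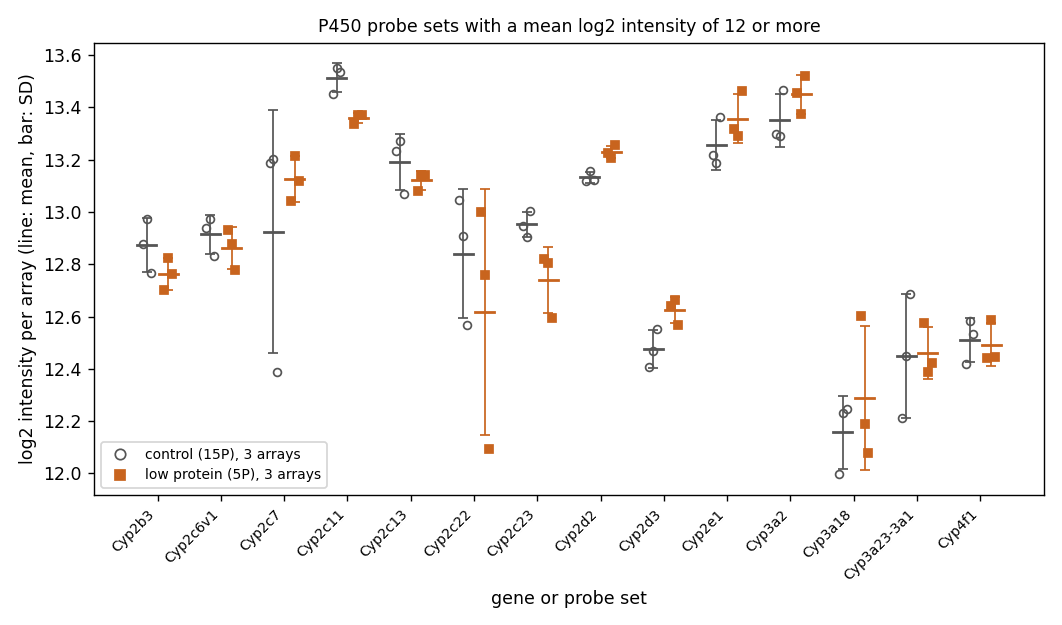
Log2 intensity per array (y axis) of the 14 P450 probe sets with a mean of 12 or more (x axis), for control and low-protein livers as keyed, with arrays 1 to 3 from left to right, a line at the mean and a bar for the SD (n = 3). The log2 fold changes lie between -0.22 and 0.20, and levels of different probe sets are not comparable.

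CYP1A enzymes activate aromatic compounds and are the classic targets of AHR. Cyp1a1 (gene ID 24296), the most inducible of them, read 4.60, 5.06 and 5.18 in control livers and 4.65, 4.21 and 4.54 in low-protein livers. The diets overlapped through control replicate 1, and the log2 fold change was -0.48 (-0.88 to -0.085, adjusted p = 0.245). Cyp1a2 (gene ID 24297), its neighbour in the RefSeq gene order and a caffeine-oxidising enzyme of liver, read 10.53, 10.27 and 10.54 against 10.15, 9.45 and 10.40. Low-protein replicate 2 was the lowest, and the log2 fold change was -0.44 (-0.95 to 0.059, adjusted p = 0.377), or -0.17 with that array left out. Cyp1b1 had 0.036 (-0.17 to 0.24), and Cyp2s1, another AHR target, had 0.016 (-0.23 to 0.26), and both turned sign under other scalings. Of the 4 AHR targets 2 were above 0 and 2 below, and 0 passed.

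The receptors CAR and PXR drive the induction of P450 genes by drugs. Of 13 genes on the list for them 8 were measured, with 4 above 0 and 4 below and a median of -0.0037 against 0.032 over all probe sets, and 0 passed. The list also holds Cyp2b3, a constitutive liver form not known as a target of drug induction, and without it, a choice made after the values were seen, 4 genes were above 0 and 3 below, with a median of 0.012. Cyp2b3 was the only CYP2B gene among the 8. Cyp2b1 and Cyp2b2 had no probe set among the members, so these counts do not cover them. Cyp3a23-3a1, the rat CYP3A form most inducible through PXR, read 12.21, 12.45 and 12.69 against 12.58, 12.39 and 12.42. The low-protein values lay within the control range, and the difference was 0.012 (-0.28 to 0.31). It ran from -0.11 to 0.13 with 1 array left out and was -0.015 with median centring and -0.020 with quantile normalization. The constitutive Cyp2b3 read 12.88, 12.97 and 12.77 against 12.70, 12.82 and 12.76, which is -0.11 (-0.32 to 0.10). Cyp3a18 had 0.13 (-0.20 to 0.47), or -0.024 with low-protein replicate 1 left out. Over the 4 CYP3A probe sets the median was 0.056. Cyp2b12 and Cyp2b21, forms known mainly outside the liver, had 0.0052 and 0.068.

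Among the CYP4F enzymes, which hydroxylate leukotrienes and other eicosanoids, members differed in sign. Cyp4f5 (gene ID 286905) read 3.61, 3.52 and 3.63 in control livers and 3.93, 4.40 and 4.03 in low-protein livers, with no overlap. Its log2 fold change was 0.54 (0.24 to 0.83), a 1.45-fold difference that did not pass (adjusted p = 0.126, 0.0965 to 0.286 over the alternatives). The signal of Cyp4f5 was dim, with all control values under the 25th percentile of mean intensity (3.77) and a mean of 3.85. Whether it exceeds background was not tested. Cyp4f17 (gene ID 500801), next to it in the RefSeq gene order, read 5.56, 5.39 and 5.40 against 4.65, 5.14 and 5.08. It too did not overlap, but in the opposite direction, at -0.49 (-0.81 to -0.18, adjusted p = 0.164). Cyp4f4 (gene ID 286904) read 10.91, 11.03 and 10.93 against 10.71, 10.78 and 10.71, at -0.23 (-0.42 to -0.033, adjusted p = 0.257). All 3 of its low-protein values were below all 3 controls. Cyp4f6 had 0.27 (-0.023 to 0.55). Cyp4f1 read 12.42, 12.58 and 12.53 against 12.44, 12.59 and 12.45, which is -0.021 (-0.23 to 0.19). Related CYP4F genes can share probe sequence, and cross-hybridisation was not tested.

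The CYP2J epoxygenases make epoxides of arachidonic acid. Cyp2j3 had 0.014 (-0.18 to 0.21) and -0.0025 on its other probe set, Cyp2j4 had 0.14 (-0.11 to 0.40) and Cyp2j10 had 0.25 (-0.091 to 0.59). With 1 array left out Cyp2j4 ran from 0.044 to 0.20, lowest without low-protein replicate 3, and Cyp2j10 from 0.13 to 0.41, lowest without control replicate 2. Fatty acid hydroxylases outside these subfamilies did not pass either. Cyp4v3 had -0.044 and -0.12 on its 2 probe sets, Cyp4b1 had 0.12 (-0.23 to 0.47) and Cyp2u1 had 0.22 (-0.16 to 0.60), or 0.072 with low-protein replicate 3 left out. In the eicosanoid and fatty acid list, 12 of 19 genes were measured, 7 were above 0 and 5 below, with a median of 0.066 against 0.032 over all probe sets, and 0 passed.

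Cyp20a1 (gene ID 316435), an orphan P450 with no settled substrate, had the smallest p of all members. It read 8.15, 8.21 and 8.08 in control livers and 8.47, 8.89 and 8.60 in low-protein livers. All 3 low-protein values were above all 3 controls, a 1.42-fold difference (log2 0.51, 95% interval 0.24 to 0.78) that did not pass (adjusted p = 0.121, 0.086 to 0.273 over the alternatives). Leaving out 1 low-protein array moved its log2 fold change between 0.39 (replicate 2) and 0.60 (replicate 1).

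Retinoid and vitamin D hydroxylases were measured for Cyp26a1, Cyp26b1 and Cyp27b1. The probe sets of Cyp26b1, a retinoic acid hydroxylase, disagreed in size. On 1384392_at it read 5.67, 5.38 and 5.28 against 4.41, 5.15 and 4.69, with no overlap and a log2 fold change of -0.69 (-1.12 to -0.27, adjusted p = 0.153). This was the largest downward value of all members, and with low-protein replicate 2 left out it was -0.89 (adjusted p = 0.102). On 1376667_at, which stands for the gene, it read 5.71, 5.42 and 5.48 against 5.48, 5.60 and 5.27 with overlap, at -0.088 (-0.36 to 0.19). Cyp26a1, the retinoic acid hydroxylase of adult liver, had -0.062 (-0.41 to 0.29), and Cyp27b1, the vitamin D 1-alpha-hydroxylase known from kidney, had -0.036 (-0.34 to 0.26).

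Enzymes of steroid hormone synthesis are made mainly in adrenal and gonads, and 0 of the 5 measured passed. Cyp11a1, the side-chain cleavage enzyme, had 0.097, Cyp11b1, the 11-beta-hydroxylase, 0.082 and Cyp21a1, the 21-hydroxylase, -0.020. Cyp19a1, the aromatase that makes estrogens, had 0.20 (-0.041 to 0.44), and its other probe sets had 0.14 and 0.32. The last of these read 2.62, 2.93 and 2.87 against 3.06, 3.09 and 3.22, with no overlap and an adjusted p of 0.223. The table holds no detection calls, so whether such signals exceed background was not tested. Cyp17a1, the 17-alpha-hydroxylase, read 9.04, 8.998 and 7.99 against 9.01, 7.96 and 8.36. High and low values occurred on both diets, and its log2 fold change was -0.23 (-0.98 to 0.52). It was 0.0073 with low-protein replicate 2 left out and -0.58 with control replicate 3 left out. The sterol hydroxylases Cyp39a1 and Cyp46a1 had 0.18 (-0.12 to 0.48) and 0.086 (-0.12 to 0.29).

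Of the remaining members, Cyp2f4, Cyp2t1, Cyp2g1 and Cyp2a3 had -0.099, -0.18, 0.15 and 0.20. Cyp2a3, known from the respiratory tract, read 3.63, 3.43 and 3.70 against 3.80, 3.76 and 3.78, so that its diets did not overlap, with an adjusted p of 0.374. A filter on low values at the 25th percentile of mean intensity kept 49 of the 56 members, and one at the median kept 41. The 7 members at or under the lower limit were probe sets of Cyp11b1, Cyp19a1 (2), Cyp21a1, Cyp2a3, Cyp2b12 and Cyp2b21.

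**Figure D4:**
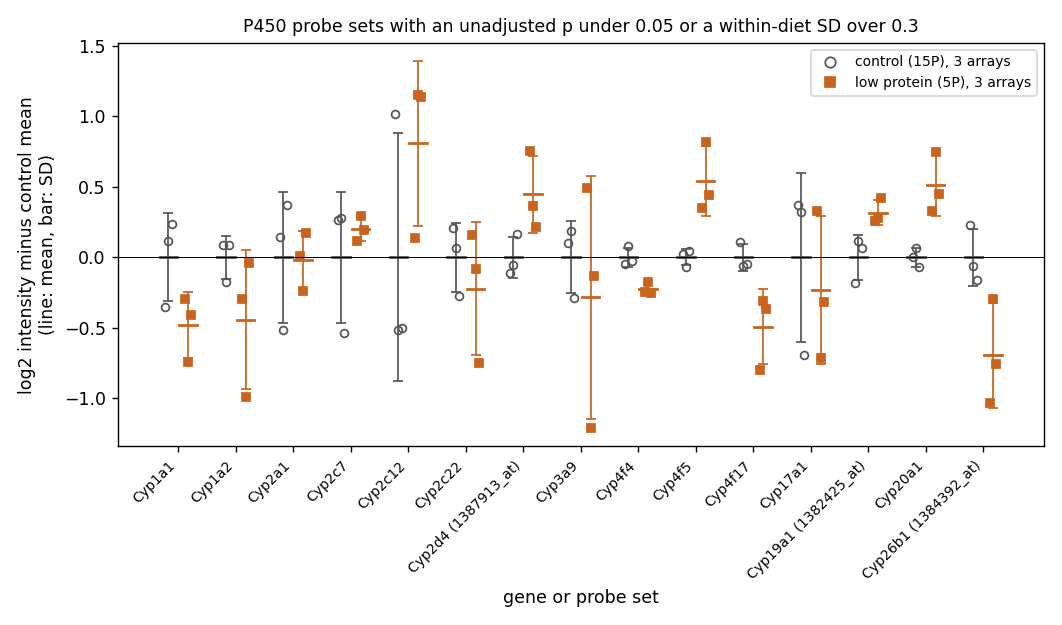
Log2 intensity minus the control mean (y axis) of the P450 probe sets with an unadjusted p under 0.05 or a within-diet SD over 0.3 (x axis), for control and low-protein livers as keyed, arrays 1 to 3 from left to right, with a line at the mean and a bar for the SD (n = 3). Cyp2c12, Cyp3a9 and Cyp17a1 spread widely within a diet. Cyp4f5, Cyp20a1, Cyp2d4 (1387913_at) and Cyp19a1 (1382425_at) are higher on all 3 low-protein arrays. Cyp4f17, Cyp4f4 and Cyp26b1 (1384392_at) are lower on all 3. Cyp4f5 is a dim probe set, with a mean log2 intensity of 3.85.

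The spread within a diet was widest for Cyp2c12, Cyp3a9 and Cyp17a1, with SDs pooled over the diets of 0.746, 0.635 and 0.563 (log2). It was 0.147 for the median member and 0.133 for the median of all probe sets. The 3 genes did not share 1 deviating array. Cyp2c12 was high on control replicate 1, Cyp3a9 was low on low-protein replicate 2, and Cyp17a1 was low on control replicate 3 and low-protein replicate 2.

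Regulators of P450 genes (transcription factors, receptors and proteins that act with them) were measured for 25 of 26 listed genes. Of these 8 were above 0 and 17 below, with a median of -0.086 against 0.032 over all probe sets, and 0 passed (0.132% of all probe sets did). At an unadjusted p under 0.05 there were 5 of 25, against 15.4% of all probe sets. Nr3c1, the glucocorticoid receptor, read 9.98, 9.61 and 9.82 in control livers and 9.23, 9.17 and 8.94 in low-protein livers. The diets did not overlap, and its log2 fold change of -0.69 (-0.97 to -0.41) had an adjusted p of 0.0739 (0.0625 to 0.2 over the alternatives), with -0.22 on its other probe set. Cebpa, which encodes C/EBPalpha, read 10.11, 10.17 and 10.02 against 9.70, 9.45 and 9.68. It too did not overlap, at -0.49 (-0.72 to -0.26, adjusted p = 0.0932, 0.073 to 0.237 over the alternatives). Its 4 other probe sets ran from -0.47 to -0.29. Ppargc1a, named here after its values were seen, had -0.44 (-0.94 to 0.059, adjusted p = 0.378) on the probe set that stands for it. On its other probe sets it had -0.92 (no overlap, adjusted p = 0.0652) and -0.62 (adjusted p = 0.385).

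Onecut1, which encodes HNF6, read 11.52, 11.02 and 9.55 against 8.73, 9.18 and 9.61. Control replicate 3 stood with the low-protein arrays, so the diets overlapped, and the log2 fold change was -1.52 (-2.56 to -0.49, adjusted p = 0.182). With control replicate 3 left out it was -2.10 and passed (adjusted p = 0.0362). The adjusted p ran from 0.0362 to 0.375 over the alternatives. On its other probe set Onecut1 read 8.73, 8.00 and 6.61 against 5.81, 6.21 and 6.53. There the diets did not overlap, with control replicate 3 just above the highest low-protein value, and the log2 fold change was -1.59 (adjusted p = 0.175). Stat5b, the factor that carries the male growth hormone signal, had -0.50 (-0.83 to -0.17, adjusted p = 0.178), and Ahrr, the AHR repressor, 0.33 (0.13 to 0.53, adjusted p = 0.155). The signal of Ahrr was dim, with a mean log2 intensity of 3.20, under the 25th percentile of all probe sets (3.77). Onecut2 had -0.21 (-0.43 to 0.0056), and its other probe sets ran from -0.34 to -0.19.

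The xenobiotic receptors themselves and Hnf4a, named here after their values were seen, did not pass. Nr1i2 (PXR) read 8.64, 9.12 and 9.03 against 8.79, 9.002 and 8.85, at -0.052 (-0.36 to 0.26). Nr1i3 (CAR) had 0.18 (-0.28 to 0.64), Ahr had -0.076 (-0.29 to 0.14; 0.33 on its other probe set) and Hnf4a had -0.011 (-0.40 to 0.38). The other probe sets of Hnf4a disagreed in sign, at -0.26 (no overlap, adjusted p = 0.283) and 0.17. Over the alternatives the value took both signs for Nr1i2 (-0.20 to 0.043), Nr1i3 (-0.078 to 0.37) and Hnf4a (-0.15 to 0.15), so no direction is given for them.

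**Figure D5:**
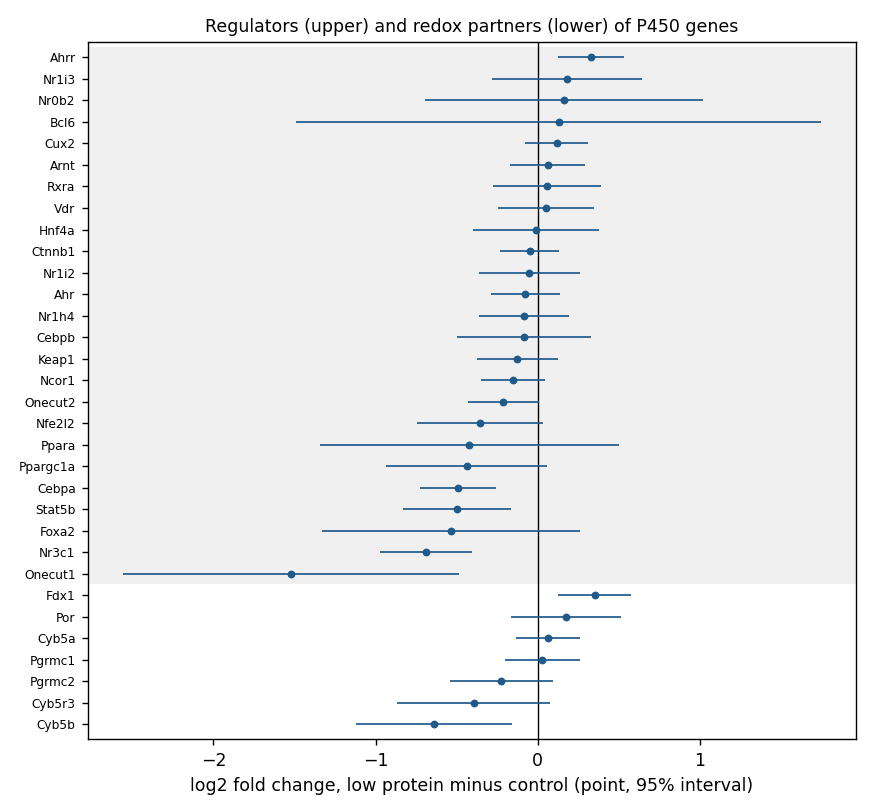
Log2 fold change (x axis, low protein minus control) with its 95% interval from limma for 25 regulators of P450 genes and 7 redox partners (rows), 1 probe set a gene, n = 3 arrays per diet. Onecut1 lies farthest from 0, at -1.52, and 0 of these genes passed.

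P450 enzymes need electrons and heme. Of 7 measured redox partner genes 4 were above 0 and 3 below, and 0 passed. Por, the NADPH reductase that serves microsomal P450 enzymes, read 9.93, 10.46 and 10.08 against 10.22, 10.26 and 10.52, at 0.18 (-0.16 to 0.52), with 0.075 on its other probe set. Fdx1, the ferredoxin of mitochondrial forms, read 10.14, 10.03 and 10.16 against 10.39, 10.38 and 10.61, without overlap, at 0.35 (0.13 to 0.58, adjusted p = 0.166), with 0.25 on its other probe set. Cyb5b, the cytochrome b5 of the outer mitochondrial membrane, had -0.64 (-1.12 to -0.16, adjusted p = 0.211) and -0.29 on its other probe set. Cyb5r3, Pgrmc2, Cyb5a and Pgrmc1 had -0.39, -0.22, 0.064 and 0.030.

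Heme synthesis and breakdown genes were measured for 10 of 11 listed genes, with 6 above 0 and 4 below, and 0 passed. Alas1, the first and limiting enzyme of hepatic heme synthesis, read 11.28, 11.87 and 11.74 against 12.16, 11.62 and 11.22. The diets overlapped, and the difference was 0.039 (-0.51 to 0.59), which took both signs over the alternatives (-0.21 to 0.26). Blvra, a biliverdin reductase, had 0.39 (0.17 to 0.60, adjusted p = 0.138) and Ppox, of a late heme step, -0.39 (-0.65 to -0.14, adjusted p = 0.167), both without overlap. Alad had 0.22, Uros -0.15, Urod 0.11 and Fech -0.083.

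Of 6 listed hepatocyte markers 5 were measured, and they ran from -0.19 to 0.049 between the diets with 0 passing. Red blood cell markers did not pass either, with Hbb at 0.48 (adjusted p = 0.0739), Alas2 at 0.43, Slc4a1 at 0.14 and Epb42 at -0.058, and the bile duct markers Epcam, Krt19 and Krt7 had -0.55, -0.39 and 0.13. Markers of Kupffer, endothelial, stellate, T and neutrophil cells had median log2 fold changes of 0.15, -0.066, 0.21, 0.078 and -0.37, and 0 passed. The part of all these cell types in the values above was not tested. Median signal on the 6 arrays lay between 33.3 and 34.2 (linear intensity), and the labels give no scan or processing batch. Among the 10 P450 probe sets outside the rule, 2 passed, both of the sterol 14-demethylase Cyp51 (-1.79 and -1.71, adjusted p = 0.00833 for both).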

How the data were processed

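Per the labels' protocols, liver RNA was biotin-labelled with a 3' IVT kit for Affymetrix rat arrays. The authors deposited 1 linear intensity per probe set and array, made with RMA per the submitters' processing notes; its version is not given in the sources used here. Since RMA equalises arrays, it hides a shift of nearly all genes. Log2 was taken here, 57 control probe sets were left out of 31099, and 31042 were tested unfiltered. Low protein and control, 3 arrays each, were fitted with limma 3.58.1 under R 4.3.3 (lmFit, eBayes, two-sided) with Benjamini-Hochberg adjustment across all of them. Symbols came from the platform annotation; all 50 gene IDs matched the RefSeq table of GRCr8, with 0 symbols changed. Where a list counts genes, the probe set of highest mean intensity stands for each. Members and lists were chosen with earlier results of these data known. The rule named genes past the threshold, the 12 largest differences each way among genes whose diets did not overlap, the 10 of highest mean intensity, the highest of each subfamily and up to 6 of smallest p per list, with other probe sets of each; the remaining members were added after their values were seen. Alternatives were the prior variance, array scaling, filters on dim probe sets, array weights, a block on the replicate number and each array left out. The fit was tested on simulated data. Figures were drawn with matplotlib 3.10.9.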

Additional observations from a re-analysis of the deposited data

How the results depend on the processing

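No P450 probe set passed in the 15 alternative fits, and 36 of 56 kept their sign in all of them. Over all probe sets, 11 passed upward and 30 downward. The counts were 23 and 80 with a robust prior variance, 27 and 75 with array weights, 13 and 65 with arrays centred on the median, 24 and 35 on the 75th percentile, and 3 and 3 with the replicate number as a block (replicate block). Upward calls made up 26.8% as deposited, 16.7% after median and 40.7% after 75th-percentile centring; no scaling moved the median of all probe sets by over 0.049. Leaving out 1 array gave 2 to 27 upward and 13 to 82 downward calls, the highest counts without control replicate 3, and 0 to 1 among regulators and partners (Onecut1, without control replicate 3). Same-numbered arrays did not deviate together (correlations -0.102 to -0.0272), and the block called no P450 probe set. The P450 median (0.013) was -0.014 with median centring, 0.062 with 75th-percentile centring, -0.0058 with quantile normalization, -0.0025 and -0.021 with the filters, 0.032 with array weights and 0.015 to 0.051 with 1 array left out. The Cyp2d median was 0.17 with 75th-percentile centring, the Cyp2b median -0.11 under both filters, which left 1 probe set, and the Cyp4f median -0.12 with the filter at the median. Leaving out 1 array gave -0.23 to 0.17 for Cyp2a and -0.094 to 0.074 for Cyp2b. Signs near 0 turned under other scalings or array weights for Cyp1b1 (-0.0056), Cyp21a1 (0.029), Cyp27b1 (0.013), Cyp2a1 (0.029 and 0.033), Cyp2b12 (-0.022 and -0.046), Cyp2j3 (-0.013), Cyp2j3 (0.046 and 0.050), Cyp2s1 (-0.011 and -0.035), Cyp3a23-3a1 (-0.015 and -0.020), Cyp4f1 (0.028) and Cyp4v3 (0.0053). With 1 array left out the log2 fold change took both signs for 20 member probe sets, Cyp17a1 (-0.58 to 0.0073), Cyp1b1 (-0.011 to 0.086), Cyp21a1 (-0.077 to 0.041), Cyp26a1 (-0.18 to 0.11), Cyp26b1 (-0.16 to 0.00069), Cyp27b1 (-0.14 to 0.068), Cyp2a1 (-0.28 to 0.17), Cyp2b12 (-0.094 to 0.074), Cyp2c22 (-0.41 to 0.039), Cyp2c7 (-0.069 to 0.34), Cyp2f4 (-0.19 to 0.025), Cyp2j3 (-0.025 to 0.047), Cyp2j3 (-0.077 to 0.080), Cyp2s1 (-0.091 to 0.082), Cyp3a18 (-0.024 to 0.24), Cyp3a23-3a1 (-0.11 to 0.13), Cyp3a9 (-0.67 to 0.18), Cyp4b1 (-0.0075 to 0.24), Cyp4f1 (-0.068 to 0.015) and Cyp4v3 (-0.12 to 0.0099), and for Fech (-0.14 to 0.0011). For 25 more it kept its sign but moved by over 1.5 times for at least 1 array. The causes were not tested. With 3 arrays per diet, differences well under a doubling could be missed. Larger differences also did not pass where arrays of the same diet varied widely, as for Onecut1 (-1.52, adjusted p = 0.182 by limma).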
